A study of Homo sapiens with 16 samples.

Results

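HEK293 cells that overexpressed the RNF43 frameshift variant G659fs were compared with HEK293 cells that overexpressed the frameshift variant R117fs, by RNA sequencing. HEK293 is a human line derived from embryonic kidney. The comparison held 8 of the 16 libraries of the series, 4 labelled G659fs and 4 labelled R117fs, and the members were taken by those labels. The other 8 libraries, 4 with wild-type RNF43 (WT) and 4 with GFP as the overexpression control, entered the same model fit and are given as context. Total RNA was extracted on columns with a DNase I step and made into libraries for Illumina sequencing. Nothing in the sources used here gives the vector, its promoter, the time of overexpression or whether each replicate was a culture of its own, so every p-value measures the spread between these libraries, which may be technical.

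RNF43 is a transmembrane E3 ubiquitin ligase of the plasma membrane. It marks Frizzled receptors for removal and so lowers the response of a cell to Wnt ligands, and R-spondins acting through LGR receptors clear it from the surface. Its extracellular domain comes first in the protein, then the membrane-spanning segment, the catalytic RING domain and a long cytoplasmic tail. On the GENCODE 29 transcript ENST00000577716, codon 117 lies in exon 3 (GRCh38 chr17:58370935-58370937, minus strand), in the part that encodes the extracellular domain, and codon 659 lies in exon 9 (chr17:58357799-58357801), in the part that encodes the tail. A frameshift at codon 117 thus comes before the RING domain, and one at codon 659 comes after it. The comparison asks what differs in expression between cells given the late and the early truncation.

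RNF43 itself was checked first. It stood at 36249, 38901, 35239 and 47175 CPM (counts scaled to 1000000 per library after TMM normalisation) in G659fs replicates 1 to 4, against 30191, 79637, 94568 and 69368 CPM in R117fs replicates 1 to 4. The WT libraries averaged 53346 CPM and the GFP libraries 31.4 CPM, so every construct was overexpressed. The 2 groups overlapped, because R117fs replicate 1 lay below all 4 G659fs libraries while the other 3 R117fs libraries lay above them. The log2 fold change of G659fs over R117fs was -0.80 ± 0.35 (SE; edgeR adjusted p = 0.144), and without R117fs replicate 4 it was -0.79 (adjusted p = 0.162). Without R117fs replicate 1 it was -1.05 (adjusted p = 0.0276), so that library decides the call.

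The constructs also differed in which annotated RNF43 transcript took their reads. ENST00000577716, of 4367 bases, held 28.1% ± 0.25 of RNF43 counts in G659fs and 99.4% ± 0.36 in R117fs (SD, n = 4 each). ENST00000577625, of 2198 bases and without the first coding exon, held 71.9% ± 0.25 in G659fs and 0.00318% ± 0.0014 in R117fs. The shares did not overlap between the groups (exact permutation test, two-sided p = 0.0286, the smallest that 4 against 4 libraries can give). In the WT libraries ENST00000577716 held 27.07% to 27.97% and ENST00000577625 held 71.98% to 72.90%, near the G659fs shares, so R117fs was the construct that stood apart. The reads did not say which bases each construct carried, so the shares are a property of how reads were assigned to annotated transcripts. With counts offset by effective transcript length the RNF43 fold change became -0.15 (adjusted p = 0.839). In R117fs replicates 1 to 4, ENST00000582293, a retained-intron transcript of 324 bases, took 15.1%, 17.1%, 22.4% and 0% of RNF43 TPM, a length-scaled level. Its part in that fold change was not tested.

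Total counts were 29886062 to 44738520 in the G659fs libraries and 20364357 to 41161835 in the R117fs libraries. R117fs replicate 4 stood apart: across genes its log2 deviation from the other R117fs libraries had an SD of 0.579, where no other library of the series passed 0.409, and the deviation followed the GC content of the gene (Spearman 0.799, taken over genes and so not over independent replicates). Results are therefore given with and without it. All 8 HEK293 markers examined were detected in all 8 libraries, among them VIM at 717 to 823 CPM in G659fs and 600 to 887 CPM in R117fs. Of the markers of other cell types, HBB was at 0 in all 8 libraries, CD3E was at 0 in 5 and THY1 in 5, PTPRC did not pass 0.115 CPM and KRT20 did not pass 0.023 CPM. Of the 15 tested markers of blood cells, gut epithelium and fibroblasts, 1 passed the test, the collagen gene COL3A1. Its CPM overlapped between the groups, and it lost the call in 7 of 17 alternative fits. Without R117fs replicate 4, 1 blood cell marker and 2 fibroblast markers were higher in G659fs and 1 gut marker was lower.

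Of 16787 genes tested, 2412 (14.4%) differed between G659fs and R117fs at an edgeR adjusted p under 0.05. In G659fs 1066 (6.35%) were higher and 1346 (8.02%) were lower. Without R117fs replicate 4 the number was 4012 of 17053 (23.5%), with 1965 (11.5%) higher and 2047 (12%) lower. Of the 2412 calls, 2282 (94.6%) kept their direction and their call without that library, 130 lost the call and 0 reversed. A change of at least 2-fold was found for 222 genes (1.32%), 83 higher (0.494%) and 139 lower (0.828%), and for 236 genes (1.38%), 103 higher (0.604%) and 133 lower (0.78%), without R117fs replicate 4. The median log2 fold change over all tested genes was 0.00. In 18.1% of tested genes the CPM values of the 4 G659fs and 4 R117fs libraries did not overlap, with G659fs above in 9.28% and below in 8.78%. The fit of the 8 libraries without WT and GFP called 796 genes, 243 of them higher and 553 lower. Leaving out G659fs replicate 2 or 3 gave 1390 and 1320 calls.

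**Figure D1:**
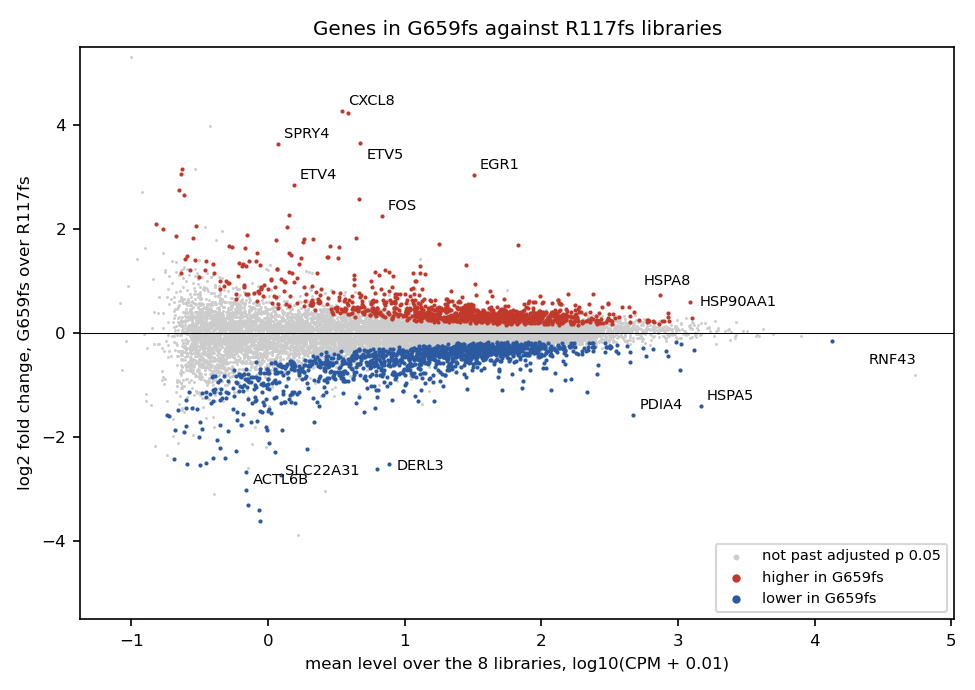
Each point is 1 of the 16787 tested genes, with its mean level over the 8 libraries, as log10(CPM + 0.01), on the x axis and the log2 fold change of G659fs over R117fs on the y axis. Red points were higher and blue points lower in G659fs at an edgeR adjusted p under 0.05. The labelled genes above 0 include EGR1, ETV5 and CXCL8, and those below 0 include HSPA5, PDIA4 and DERL3, while RNF43, at the far right, did not pass.

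Among protein-coding genes that passed with and without R117fs replicate 4, did not overlap between the groups and reached 1 CPM, the 10 largest rises in G659fs were those of CXCL8, ETV5, SPRY4, EGR1, ETV4, HSPA1A, ETV1, FOS, IGFN1 and KRT75. They include 3 ETS transcription factors of the PEA3 family (ETV1, ETV4 and ETV5), the growth factor feedback inhibitor SPRY4 and the immediate early factors EGR1 and FOS. IGFN1, an immunoglobulin-domain protein known from skeletal muscle, rose by 2.04 ± 0.25 and KRT75, a keratin known from hair follicles, rose by 1.89 ± 0.34 on the log2 scale. The 10 largest falls were those of ACTL6B, XKR7, ZNF750, SLC22A31, DERL3, CDH15, NPR3, CASC1, SPEF1 and SNAP25. Of these 10, only DERL3, a subunit of the channel that exports misfolded proteins from the endoplasmic reticulum (ER), and SLC22A31, a member of the organic ion transporter family, exceeded 5 CPM in the mean of R117fs.

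SLC22A31 stood at 1.71, 1.77, 1.68 and 1.70 CPM in the G659fs libraries, against 5.47, 12.5, 9.48 and 15.4 CPM in the R117fs libraries. The G659fs libraries were close together and all below the lowest R117fs library, replicate 1, and the fall was 2.61 ± 0.24 on the log2 scale (adjusted p = 4.6e-06). ACTL6B, a neuronal subunit of BAF chromatin remodellers, stood at 0.139, 0.184, 0.0741 and 0.170 CPM in G659fs, against 0.853, 1.28, 1.04 and 1.69 CPM in R117fs. These rest on 20 counts over the 4 G659fs libraries and 135 over the 4 R117fs libraries, and the fall was 3.02 ± 0.37. SNAP25, a synaptic vesicle fusion protein, fell by 1.86 ± 0.31, and CDH15, a cadherin of muscle cells, fell by 2.29 ± 0.36. CDH15 (chr16:89171767-89195492, plus strand) lies next to SLC22A31 (chr16:89195761-89201664, minus strand). Whether the falls of these neighbours are separate was not tested. NPR3, a clearance receptor for natriuretic peptides, fell by 2.23 ± 0.38. ZNF750, a factor of epidermal differentiation, fell by 2.68 ± 0.48, and XKR7, a member of the XK-related membrane protein family, fell by 2.73 ± 0.31. All of these held without R117fs replicate 4.

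Genes of protein folding in the ER were lower in G659fs than in R117fs. Secretory and membrane proteins fold in the ER with the help of lumenal chaperones, and when unfolded proteins build up, the sensors IRE1 (encoded by ERN1), PERK and ATF6 switch on the unfolded protein response, which raises chaperones, disulfide isomerases and the machinery of ER-associated degradation. ATF6 and XBP1 act on many of these genes through the ER stress response element (ERSE), written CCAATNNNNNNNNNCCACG, and it was searched on both strands in 300-base RefSeq promoters (GRCh38.p14). It stood in 27 of 34943 promoters (0.0773%). Among the 16 ER chaperones and folding factors examined, 15 had a promoter in the table, and 5 of them held it (CALR, CANX, CRELD2, HSP90B1 and HSPA5). Of the 13 disulfide isomerase and oxidoreductase genes with a promoter 2 held it, ERO1B and PDIA6, and of the 12 genes of the unfolded protein response sensors and factors 1 did, XBP1. Such a match is a description of the letters, not of binding. Here and for the other motifs a gene was counted if any of its promoters matched. These counts are thus not in the same unit as the share of single promoters. The 250 bases before the start of HSPA5 (chr9:125241344-125241593, minus strand), HSP90B1 (chr12:103930160-103930409, plus strand) and XBP1 (chr22:28800570-28800819, minus strand) are shown because these genes fell together, with the element in capitals and its reverse complement also in capitals.
HSPA5: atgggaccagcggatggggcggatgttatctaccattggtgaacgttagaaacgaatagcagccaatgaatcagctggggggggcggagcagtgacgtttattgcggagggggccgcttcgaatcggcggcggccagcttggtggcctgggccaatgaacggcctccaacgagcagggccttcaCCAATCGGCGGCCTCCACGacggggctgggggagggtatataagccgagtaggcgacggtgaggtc
HSP90B1: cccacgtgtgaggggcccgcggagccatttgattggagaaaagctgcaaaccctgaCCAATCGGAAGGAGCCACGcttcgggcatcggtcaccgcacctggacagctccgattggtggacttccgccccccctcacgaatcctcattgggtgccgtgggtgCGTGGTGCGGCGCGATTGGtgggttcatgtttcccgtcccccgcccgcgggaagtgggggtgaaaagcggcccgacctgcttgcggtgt
XBP1: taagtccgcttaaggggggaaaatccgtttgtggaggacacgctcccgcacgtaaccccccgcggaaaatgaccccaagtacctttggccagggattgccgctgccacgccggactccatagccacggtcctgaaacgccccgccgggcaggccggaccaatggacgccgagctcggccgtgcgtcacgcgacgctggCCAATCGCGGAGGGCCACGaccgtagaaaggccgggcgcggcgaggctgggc

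HSPA5 encodes BiP, the main Hsp70 chaperone of the ER lumen. It stood at 833, 790, 773 and 822 CPM in the G659fs libraries, against 1254, 2427, 2649 and 2147 CPM in the R117fs libraries, with WT at a mean of 1083 CPM and GFP at 630 CPM. All 4 G659fs libraries lay below all 4 R117fs libraries, of which replicate 1 was the lowest. The log2 fold change was -1.40 ± 0.14 (adjusted p = 1.3e-05) and -1.39 without R117fs replicate 4 (adjusted p = 2.5e-04). R117fs replicate 1 was also the library with the least RNF43 of its group. The part of the construct's level in these differences was not tested. Without R117fs replicate 1 the HSPA5 fold change was -1.59 (adjusted p = 9.7e-11).

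Of the 16 ER chaperones and folding factors, 12 fell and 0 rose in G659fs, where 8.02% of all tested genes fell. Without R117fs replicate 4, 14 fell, where 12% of all tested genes did. With the 8 libraries alone, 8 fell, and the count over all settings tried ran from 8 to 14. The median log2 fold change of the 16 was -0.48, against 0.00 over all tested genes. HYOU1, a large Hsp70 relative that exchanges nucleotide on BiP, stood at 143, 131, 131 and 138 CPM in G659fs, against 223, 300, 304 and 367 CPM in R117fs, and fell by 1.13 ± 0.11 (adjusted p = 5.0e-06). MANF, a small secreted ER-resident factor that binds BiP, averaged 75.6 ± 3.32 CPM in G659fs and 161 ± 39.9 CPM in R117fs and fell by 1.09 ± 0.13. SDF2L1, a partner of ER Hsp40 proteins, fell by 1.09 ± 0.18, CRELD2 by 0.73 ± 0.10 and HSP90B1, the Hsp90 of the ER, by 0.71 ± 0.11. The lectin chaperones calreticulin (CALR) and calnexin (CANX) fell by 0.44 and 0.32, and the proline isomerases FKBP2 and PPIB by 0.52 and 0.27. The members with the smallest changes were DNAJB9, at -0.12 ± 0.11 (adjusted p = 0.506), and FKBP14, at 0.13 ± 0.10 (adjusted p = 0.403). The summed level of the list was 4090 to 4352 CPM in G659fs, 5465 to 7931 CPM in R117fs, 4855 to 4952 CPM in WT and 3637 to 3811 CPM in GFP, so the G659fs range lay between those of WT and GFP.

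**Figure D2:**
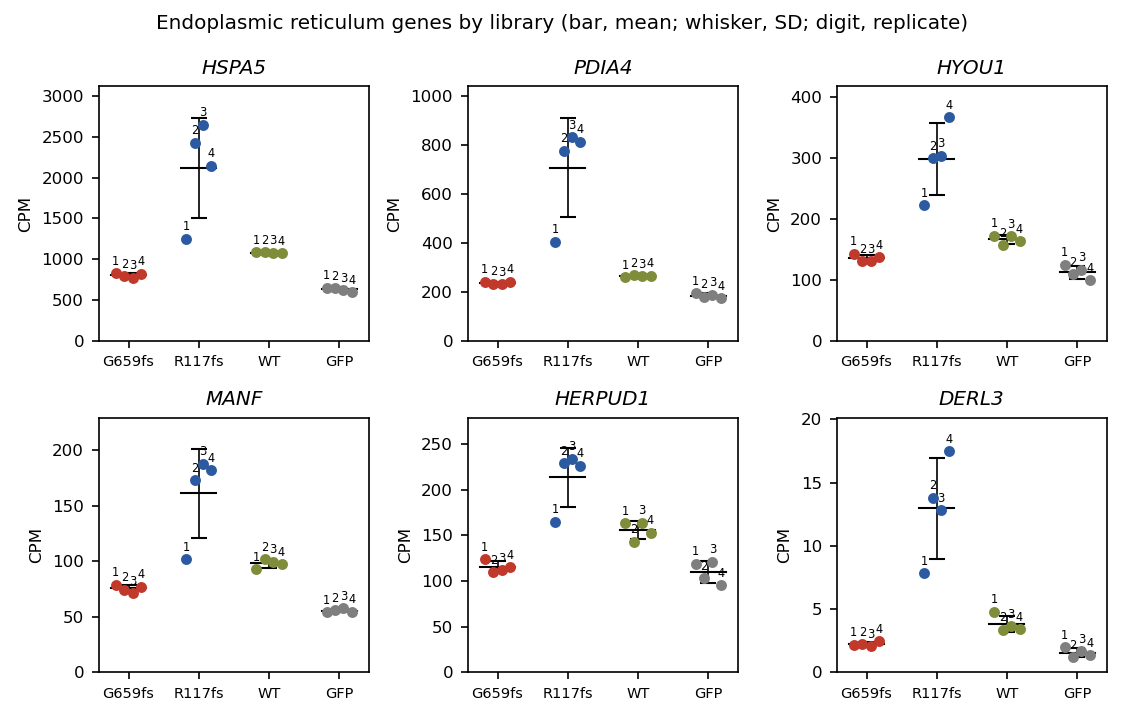
CPM of 6 ER genes on the y axis, by library, in G659fs, R117fs, WT and GFP cells. Points are libraries with their replicate number, bars the mean and whiskers the SD of 4 libraries. In each panel all 4 G659fs points lie below all 4 R117fs points, and R117fs replicate 1 is the lowest of its group (HSPA5 at 1254 CPM, against at least 2147 CPM in the other 3).

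Disulfide isomerases form and rearrange the disulfide bonds of secreted proteins. PDIA4 had the largest change of the 14 examined: it stood at 241, 233, 231 and 241 CPM in G659fs, against 405, 776, 831 and 812 CPM in R117fs, and fell by 1.58 ± 0.15 (adjusted p = 4.6e-06). The G659fs libraries lay between 231 and 241 CPM, and R117fs replicate 1 lay between them and the other 3 R117fs libraries. PDIA6 fell by 0.38 ± 0.07, P4HB by 0.35 ± 0.08, TXNDC11 by 0.33 ± 0.07 and PDIA3 by 0.20. ERO1A, the oxidase that reoxidises the isomerases, rose by 0.36 ± 0.11 and TXNDC12 rose by 0.23 ± 0.05. In all 5 of the 14 fell and 2 rose, where 8.02% of all tested genes fell and 6.35% rose. Without R117fs replicate 4 the counts were 8 and 4, where the shares of all tested genes were 12% and 11.5%. PDIA5 and ERP29, at -0.12 ± 0.08 and -0.04 ± 0.09, did not pass.

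ER-associated degradation pulls misfolded proteins back into the cytosol for the proteasome. Of the 20 genes examined 6 fell and 1 rose, and 8 and 1 did so without R117fs replicate 4. The share of all tested genes that fell was 8.02%, and 12% without that library. DERL3 stood at 2.19, 2.23, 2.05 and 2.45 CPM in G659fs, against 7.83, 13.8, 12.8 and 17.5 CPM in R117fs. Every R117fs library was above every G659fs library, and the fall was 2.52 ± 0.20 (adjusted p = 9.3e-07). HERPUD1, a scaffold of the degradation complex, stood at 124, 110, 112 and 115 CPM in G659fs, against 165, 229, 234 and 226 CPM in R117fs, and fell by 0.89 ± 0.10 (adjusted p = 3.6e-05). SEL1L and SYVN1, the adaptor and the ubiquitin ligase of the same complex, fell by 0.90 ± 0.12 and 0.44 ± 0.09, SELENOS by 0.29 ± 0.07 and the lectin OS9 by 0.25 ± 0.06. The ubiquitin-conjugating enzyme UBE2G2 rose by 0.25. EDEM1, a mannosidase of this pathway, was at -0.03 (adjusted p = 0.826) and the segregase VCP at 0.04 (adjusted p = 0.666). Of 31 proteasome subunit genes 1 passed, or 3.23%, where 14.4% of all tested genes did. PSMC4, an ATPase of the proteasome base, fell by 0.21 ± 0.07 and lost the call in 7 of 17 alternative fits. Without R117fs replicate 4, 6 of the 31 fell, where 12% of all tested genes did.

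Of 12 genes for sensors and transcription factors of the unfolded protein response, 4 fell and 0 rose, and 6 fell without R117fs replicate 4. The share of all tested genes that fell was 8.02%, and 12% without that library. DDIT3, which encodes the stress-induced factor CHOP, stood at 55.9, 40.7, 44.8 and 45.1 CPM in G659fs, against 88.8, 101, 85.6 and 111 CPM in R117fs. The groups did not overlap and the fall was 1.05 ± 0.16 (adjusted p = 3.4e-04). ERN1 fell by 0.48 ± 0.09, CREB3 by 0.29 ± 0.09 and XBP1 by 0.23 ± 0.07. Gene counts do not tell spliced from unspliced XBP1. EIF2AK3, which encodes PERK, was at -0.01 (adjusted p = 0.977), and ATF6 at -0.18 (adjusted p = 0.197, and past the threshold without R117fs replicate 4).

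Secretory proteins enter the ER through a translocon, are glycosylated there and leave in vesicles coated with COPII. Of 31 genes of translocation into the ER, glycosylation and COPII export, 11 fell and 0 rose, where 8.02% of all tested genes fell. Without R117fs replicate 4, 15 fell and 2 rose, where 12% of all tested genes fell. With the 8 libraries alone 3 fell. SEC31A, a COPII coat subunit, fell by 0.54 ± 0.08, the signal peptidase subunit SEC11C by 0.47 ± 0.07 and the translocon-associated subunit SSR4 by 0.41 ± 0.10. SSR2 fell by 0.34 ± 0.06 and SEC23B by 0.28 ± 0.06. The median of the list was -0.09.

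The ATF4 arm, which senses stress through phosphorylated eIF2-alpha and raises amino acid synthesis and transport, had 4 of 26 genes that fell and 1 that rose. That is 19.2% called, near the 14.4% of all tested genes, and without R117fs replicate 4 the counts were 1 and 2, where 23.5% of all tested genes were called. ATF5, NUPR1 and TRIB3 lost their calls without that library: their adjusted p went to 0.0765, 0.125 and 0.07, and the CPM of each overlapped between the groups. PPP1R15A, the phosphatase subunit that reverses eIF2-alpha phosphorylation, fell by 0.37 ± 0.11 and PSAT1, an enzyme of serine synthesis, rose by 0.32 ± 0.09. ATF4, ASNS and CHAC1 were at 0.02, 0.16 and 0.05, and none of the 3 passed. Of 12 aminoacyl-tRNA synthetases 4 fell, where 8.02% of all tested genes fell. Without R117fs replicate 4, 8 of the 12 fell, where 12% of all tested genes did. With the 8 libraries alone 2 fell. WARS fell by 0.61 ± 0.09, AARS by 0.31 ± 0.06, and SARS and CARS by 0.28 ± 0.07 each.

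Immediate early genes, which growth factor signalling switches on within minutes through SRF and ELK factors at CArG boxes, were higher in G659fs. Of 24 tested, 9 rose and 0 fell, where 6.35% of all tested genes rose. Without R117fs replicate 4, 15 rose, where 11.5% of all tested genes did. With the 8 libraries alone 8 rose. All 24 fold changes were above 0, and their median was 0.38. EGR1 stood at 50.9, 60.9, 60.0 and 56.2 CPM in G659fs, against 5.44, 7.12, 9.02 and 6.73 CPM in R117fs, with WT at a mean of 43.2 CPM and GFP at 7.97 CPM. Every G659fs library was far above every R117fs library, and the rise was 3.04 ± 0.21 (adjusted p = 1.8e-07). FOS stood at 9.86, 11.3, 10.8 and 12.0 CPM in G659fs, against 0.928, 2.37, 5.28 and 1.54 CPM in R117fs, and rose by 2.25 ± 0.37. EGR3 rose by 1.83 ± 0.31, ARC by 1.28 ± 0.19, FOSB by 1.22 ± 0.21, FOSL1 by 0.92 ± 0.21, JUNB by 0.70, ZFP36 by 0.64 and FOSL2 by 0.63. JUND and SRF, at 0.08 ± 0.15 and 0.07 ± 0.06, did not pass with all libraries. The CArG box was found in 453 of 34943 promoters (1.3%), and in 3 of the 18 immediate early genes with a promoter (EGR1, EGR2 and SRF). The 250 bases before the start of EGR1 (chr5:138465229-138465478, plus strand) are shown, as it had the largest rise of the list, with 2 CArG boxes in capitals; they lie 74 to 83 and 96 to 105 bases before the start.
EGR1: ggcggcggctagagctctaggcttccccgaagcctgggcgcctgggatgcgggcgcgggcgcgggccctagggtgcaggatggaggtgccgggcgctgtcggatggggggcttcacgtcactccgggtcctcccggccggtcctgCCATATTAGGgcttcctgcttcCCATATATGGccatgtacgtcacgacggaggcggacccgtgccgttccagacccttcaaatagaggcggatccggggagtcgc

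Transcriptional outputs of the RAS/MAPK pathway, which include the PEA3 factors and the inhibitors that feed back on it, rose as well. Of 20 genes 10 rose and 0 fell, where 6.35% of all tested genes rose. Without R117fs replicate 4, 11 rose, where 11.5% of all tested genes did. The median was 0.63, the largest of the lists examined with all libraries. ETV5 stood at 8.36, 7.87, 8.57 and 10.2 CPM in G659fs, against 0.677, 0.533, 1.09 and 0.565 CPM in R117fs, and rose by 3.66 ± 0.28 (adjusted p = 4.3e-07). SPRY4 stood at 1.92, 2.18, 2.42 and 2.11 CPM in G659fs, against 0.100, 0.213, 0.207 and 0.205 CPM in R117fs. It rests on 310 counts over the 4 G659fs libraries and 20 over the 4 R117fs libraries, and it rose by 3.63 ± 0.33. R117fs lay below GFP for both genes, GFP averaging 2.48 CPM for ETV5 and 0.384 CPM for SPRY4, but that difference is not part of the test given here.

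ETV4 rose by 2.84 ± 0.32 and ETV1 by 2.27 ± 0.30. The call of ETV1 was lost with the effective length offset (adjusted p = 0.0733). The ERK phosphatases DUSP5 and DUSP4 rose by 0.89 ± 0.18 and 0.88, the RAS inhibitors SPRED1 and SPRED2 by 0.84 and 0.80, and MAFF, a small MAF factor, by 1.09 ± 0.19. CCND1, the G1 cyclin D1, stood at 43.4, 48.5, 49.2 and 49.6 CPM in G659fs, against 27.3, 32.2, 37.8 and 29.6 CPM in R117fs, and rose by 0.59 ± 0.15 (adjusted p = 0.0116), a call lost with the effective length offset (adjusted p = 0.753). DUSP6, an ERK phosphatase known as a direct output of the pathway, was at 0.66 (adjusted p = 0.121), and SPRY2 at 0.36 (adjusted p = 0.0608). EMP1 and DUSP7 had the smallest changes, at -0.05 ± 0.16 and 0.08 ± 0.06. Of 13 ERBB and FGF receptor genes and EGF-family ligands, the receptors FGFR1, FGFR2 and FGFR3 rose by 0.31 ± 0.08, 0.26 ± 0.07 and 0.21 ± 0.07 and the ligand NRG2 fell by 0.61 ± 0.18, while EGFR was at 0.07 (adjusted p = 0.536). With all libraries 30.8% of these 13 were called, where 14.4% of all tested genes were. With the 8 libraries alone 0 of the 13 rose and 0 fell past the threshold.

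**Figure D3:**
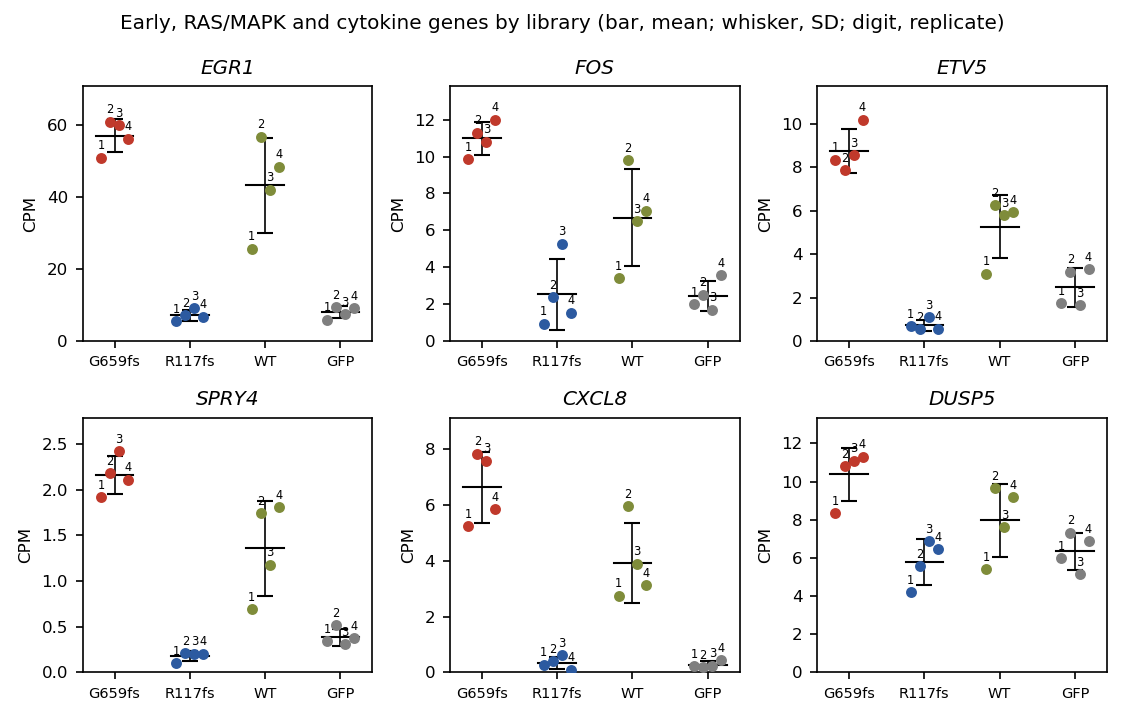
CPM of 6 early, RAS/MAPK and cytokine genes on the y axis, by library, in G659fs, R117fs, WT and GFP cells. Points are libraries with their replicate number, bars the mean and whiskers the SD of 4 libraries. In each panel all 4 G659fs points lie above all 4 R117fs points (EGR1 at 50.9 to 60.9 CPM in G659fs, against 5.44 to 9.02 CPM in R117fs).

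Genes that TNF induces through NF-kappaB, among them chemokines and the inhibitors that shut the pathway down, were mostly higher in G659fs. Of 24 tested, 14 rose and 2 fell, where 6.35% of all tested genes rose and 8.02% fell. Without R117fs replicate 4 the counts were 15 and 2, where the shares of all tested genes were 11.5% and 12%. With the 8 libraries alone 8 rose and 1 fell. CXCL8, the neutrophil chemokine interleukin-8, stood at 5.23, 7.83, 7.58 and 5.85 CPM in G659fs, against 0.276, 0.400, 0.622 and 0.103 CPM in R117fs, where the 4 libraries held 40 counts in all. The rise was 4.27 ± 0.32 (adjusted p = 4.3e-07) and 4.08 without R117fs replicate 4. WT averaged 3.92 CPM and GFP 0.276 CPM. IL32, a cytokine, stood at 7.21, 10.1, 9.16 and 8.51 CPM in G659fs, against 2.33, 4.66, 4.92 and 4.83 CPM in R117fs, and rose by 1.12 ± 0.18. PTGS2, the inducible cyclooxygenase, rose by 1.12 ± 0.12, the adhesion molecule ICAM1 by 1.04, and the inhibitors NFKBIA and TNFAIP3 by 0.95 and 0.84. Among the genes of the factors themselves, RELB rose by 0.65 and NFKB1 by 0.24, and RELA was at -0.15 (adjusted p = 0.306).

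CXCL1, CXCL2 and CXCL3 are close copies of one another, and how reads were divided among them is uncertain. Summed, they stood at 2.23, 2.59, 2.27 and 2.35 CPM in G659fs, against 0.728, 1.15, 1.35 and 1.03 CPM in R117fs, with no overlap (exact permutation test, two-sided p = 0.0286, the smallest possible). CCL20, another chemokine, held 59 counts over the 4 G659fs libraries and 5 over the 4 R117fs libraries, and its CPM overlapped between the groups. The 2 members that fell were BIRC3, an inhibitor of apoptosis, by 1.05, and TNFAIP2, by 0.56; both were picked out for their direction after their values were seen. BIRC2 and NFKBIE were at 0.08 ± 0.10 and -0.04 ± 0.11. The NF-kappaB site, a motif added after the results were seen, stood in 3171 of 34943 promoters (9.07%) and in 14 of the 22 list members with a promoter. It was not found in the CXCL8 window. The 250 bases before the start of CXCL1 (chr4:73869143-73869392, plus strand) show it in capitals, as an example from the chemokines of the list, 70 to 79 bases before the start on the plus strand and 69 to 78 on the minus strand, which overlap.
CXCL1: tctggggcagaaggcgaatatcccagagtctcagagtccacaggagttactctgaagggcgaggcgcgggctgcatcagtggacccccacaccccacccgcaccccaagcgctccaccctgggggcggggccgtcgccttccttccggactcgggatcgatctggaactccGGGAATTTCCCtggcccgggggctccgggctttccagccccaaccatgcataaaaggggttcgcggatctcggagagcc

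Chaperones of the cytosol moved the other way from those of the ER. Heat shock factor HSF1 drives them through heat shock elements, searched here on both strands as GAA, TTC and GAA in a row with any 2 bases between neighbours. Of 20 genes 10 rose and 0 fell in G659fs, where 6.35% of all tested genes rose. Without R117fs replicate 4, 12 rose, where 11.5% of all tested genes did. With the 8 libraries alone 5 rose. The median was 0.28. HSPA8, the constitutive cytosolic Hsp70, stood at 875, 940, 908 and 948 CPM in G659fs, against 767, 474, 528 and 449 CPM in R117fs. The groups did not overlap, R117fs replicate 1 was nearest to G659fs, and the rise was 0.73 ± 0.12 (adjusted p = 8.6e-04). HSP90AA1, an Hsp90 of the cytosol, stood at 1448, 1489, 1465 and 1454 CPM in G659fs, against 1113, 999, 1058 and 704 CPM in R117fs, and rose by 0.60 ± 0.11, or 0.47 without R117fs replicate 4. Here replicate 4 was the lowest of the R117fs libraries.

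The Hsp40 co-chaperone DNAJB1 stood at 111, 118, 120 and 133 CPM in G659fs, against 70.1, 69.2, 77.3 and 79.6 CPM in R117fs, and rose by 0.71 ± 0.12 (adjusted p = 8.5e-04). WT averaged 130 CPM and GFP 153 CPM for this gene, so R117fs was the group below the others. DNAJA1 rose by 0.50 ± 0.08, HSPH1 by 0.39 ± 0.10, HSP90AB1 by 0.28 and the mitochondrial co-chaperone HSPE1 by 0.27. HSPA1A and HSPA1B, the stress-induced Hsp70 genes, are near-identical, and reads between them are divided by estimation. Their sum was 7.42, 8.95, 6.69 and 10.8 CPM in G659fs, against 1.96, 2.16, 2.02 and 1.85 CPM in R117fs, with no overlap (exact permutation test, two-sided p = 0.0286, the smallest possible). HSPA6, which is close to HSPA7 in sequence, was at 1.42 (adjusted p = 0.0861). HSPA4 and BAG3, at 0.09 ± 0.12 and 0.02 ± 0.11, did not pass. The heat shock element stood in 171 of 34943 promoters (0.489%) and in 7 of the 18 members with a promoter. The 250 bases before the start of HSPA8 (chr11:123062137-123062386, minus strand) are shown as the promoter of a member that rose, with both matches in capitals, 43 to 55 and 218 to 230 bases before the start.
HSPA8: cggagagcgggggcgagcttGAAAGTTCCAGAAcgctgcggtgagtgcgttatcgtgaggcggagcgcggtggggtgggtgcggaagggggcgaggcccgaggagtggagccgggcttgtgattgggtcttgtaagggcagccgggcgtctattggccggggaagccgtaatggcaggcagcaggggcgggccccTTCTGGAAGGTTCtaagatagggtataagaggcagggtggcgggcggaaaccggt

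Targets of the tumour suppressor p53 fell where they passed. Of 23 tested 6 fell and 0 rose, where 8.02% of all tested genes fell and 6.35% rose. Without R117fs replicate 4 the counts were 8 and 1, where the shares of all tested genes were 12% and 11.5%. GDF15, a secreted stress cytokine that the ATF4 arm also drives, stood at 13.1, 7.53, 7.68 and 9.56 CPM in G659fs, against 20.7, 20.5, 15.4 and 36.5 CPM in R117fs, and fell by 1.30 ± 0.31 (adjusted p = 0.0129). PHLDA3, an inhibitor of AKT, stood at 12.6, 12.3, 11.2 and 13.9 CPM in G659fs, against 20.6, 22.6, 21.6 and 30.4 CPM in R117fs, and fell by 0.92 ± 0.12 (adjusted p = 1.2e-04). The exonuclease AEN fell by 0.77 ± 0.12, SPATA18 by 0.69 ± 0.09, the DNA damage sensor DDB2 by 0.57 ± 0.10 and FDXR by 0.36 ± 0.09. GFP lay above R117fs in the mean of PHLDA3, DDB2, AEN, SPATA18 and FDXR (35.1, 68.0, 191, 21.0 and 37.9 CPM). CDKN1A, the cell cycle inhibitor p21, was at 0.20 ± 0.09 (adjusted p = 0.13), and without R117fs replicate 4 it rose by 0.30 (adjusted p = 0.00522). MDM2 (adjusted p = 0.984) and BBC3, at -0.31 (adjusted p = 0.157), did not pass.

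Genes of mitosis and the spindle had small changes in 1 direction: of 28, 8 rose and 0 fell, with a median of 0.23 and all 28 above 0. Where 6.35% of all tested genes rose, this was 28.6% of the list. The count was 2 with the 8 libraries alone. Without R117fs replicate 4 it was 12, where 11.5% of all tested genes rose. Over all settings tried it ran from 2 to 19. CENPA, the centromeric histone, stood at 34.5, 36.3, 35.5 and 32.3 CPM in G659fs, against 23.3, 27.7, 29 and 23.6 CPM in R117fs, and rose by 0.42 ± 0.09. The kinesin KIF20A rose by 0.43 ± 0.12, CENPF by 0.37 ± 0.09, securin (PTTG1) by 0.35 ± 0.09 and the kinase AURKA by 0.34 ± 0.11, but KIF20A and AURKA lost their calls without R117fs replicate 4 (adjusted p = 0.0514 and 0.0661). BUB1, a spindle checkpoint kinase, was at 0.30 ± 0.12 (adjusted p = 0.0921). Of 33 genes of DNA replication 3 rose and 4 fell, or 21.2% called, where 6.35% of all tested genes rose and 8.02% fell. RRM2, the small subunit of ribonucleotide reductase, rose by 0.54 ± 0.10 and cyclin E2 (CCNE2) by 0.50 ± 0.11, while the origin licensing factors CDC6, MCM5 and ORC1 fell by 0.45 ± 0.07, 0.34 ± 0.09 and 0.22 ± 0.06. Of 16 tested replication-dependent histone genes 2 rose and 3 fell, or 31.2% called, where 14.4% of all tested genes were. HIST1H1E rose by 1.81 ± 0.26. HIST1H2BC rose by 1.00 ± 0.31, at means of 0.586 CPM in G659fs and 0.279 CPM in R117fs. Its CPM overlapped between the groups, and it lost the call in 8 of 17 alternative fits. Among the falls, HIST2H4A, which has an identical copy, was at -0.97 ± 0.13.

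Frizzled receptors are what RNF43 acts on, at the protein level, and several of their genes were higher in G659fs. Of 22 genes for Wnt receptors, R-spondins and Wnt export, 6 rose and 2 fell, where 6.35% of all tested genes rose and 8.02% fell. The counts without R117fs replicate 4 were 6 and 3, where the shares of all tested genes were 11.5% and 12%. FZD9 stood at 10.4, 11.4, 10.5 and 11.1 CPM in G659fs, against 6.57, 6.56, 5.91 and 8.01 CPM in R117fs, and rose by 0.68 ± 0.10 (adjusted p = 2.6e-04). FZD1 rose by 0.51 ± 0.08, FZD8 by 0.48 ± 0.10, FZD3 by 0.44 and FZD7 by 0.33, and LGR4, a receptor of R-spondins, by 0.45 ± 0.12. The R-spondin gene RSPO4 and the receptor gene LGR6, both of low level, fell by 0.99 ± 0.24 and 0.75 ± 0.18. The co-receptor genes LRP5 and LRP6, at -0.09 and 0.09, did not pass.

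Of 16 tested Wnt/beta-catenin targets 5 rose and 0 fell with all libraries, where 6.35% of all tested genes rose. Without R117fs replicate 4, 9 rose and 1 fell, where 11.5% of all tested genes rose. With the effective length offset 1 rose. DKK1, a secreted inhibitor of the LRP co-receptors, stood at 2.61, 3.51, 3.48 and 2.79 CPM in G659fs, against 1.13, 1.60, 1.87 and 1.08 CPM in R117fs, and rose by 1.16 ± 0.22 (adjusted p = 0.00217). CCND1, described above, also belongs to this list. ZNRF3, the paralog of RNF43 with the same function, rose by 0.23 ± 0.06, NKD1 by 0.25 ± 0.08 and MSX1 by 0.34 ± 0.11. AXIN2, the target most used as a readout of the pathway, was at 0.04 (adjusted p = 0.868), and LEF1 at 0.18 (adjusted p = 0.0698).

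Where 6.35% of all tested genes rose, 6 of 12 TGF-beta and BMP targets rose and 0 fell, with a median of 0.42. They were the 4 inhibitor-of-differentiation genes and 2 inhibitory SMADs. ID1 stood at 9.51, 12.0, 10.7 and 9.73 CPM in G659fs, against 2.79, 4.90, 6.06 and 5.65 CPM in R117fs, and rose by 1.18 ± 0.20 (adjusted p = 9.7e-04). ID2 rose by 0.64 ± 0.08, ID3 by 0.45 ± 0.08, ID4 by 0.43 ± 0.10, SMAD6 by 0.73 ± 0.10 and SMAD7 by 0.41 ± 0.12. BAMBI, a pseudoreceptor that dampens TGF-beta signalling, was at 0.06 ± 0.10 and did not pass. Of 21 YAP/TAZ targets 4 rose and 0 fell: ANKRD1 by 1.68 ± 0.21, CTGF by 0.59 ± 0.10, CYR61 by 0.54 ± 0.09 and FOXF2 by 0.27 ± 0.07. That is 19% called, where 14.4% of all tested genes were called and 6.35% rose. Without R117fs replicate 4, 7 of the 21 rose and 0 fell, where 11.5% of all tested genes rose. With the 8 libraries alone 3 rose. Of 23 genes for collagens, laminins and matrix glycoproteins 3 rose and 1 fell with all libraries. That is 17.4% called, near the 14.4% of all tested genes. TNC, which encodes tenascin-C, stood at 15, 14.7, 13.6 and 19.8 CPM in G659fs, against 8.53, 6.74, 7.93 and 8.27 CPM in R117fs, and rose by 1.00 ± 0.16. COL5A2 fell by 0.35 ± 0.10. Without R117fs replicate 4, 12 of the 23 rose and 1 fell, where 11.5% of all tested genes rose. In that fit the list was thus not near the share of all genes. With the 8 libraries alone 1 rose.

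**Figure D4:**
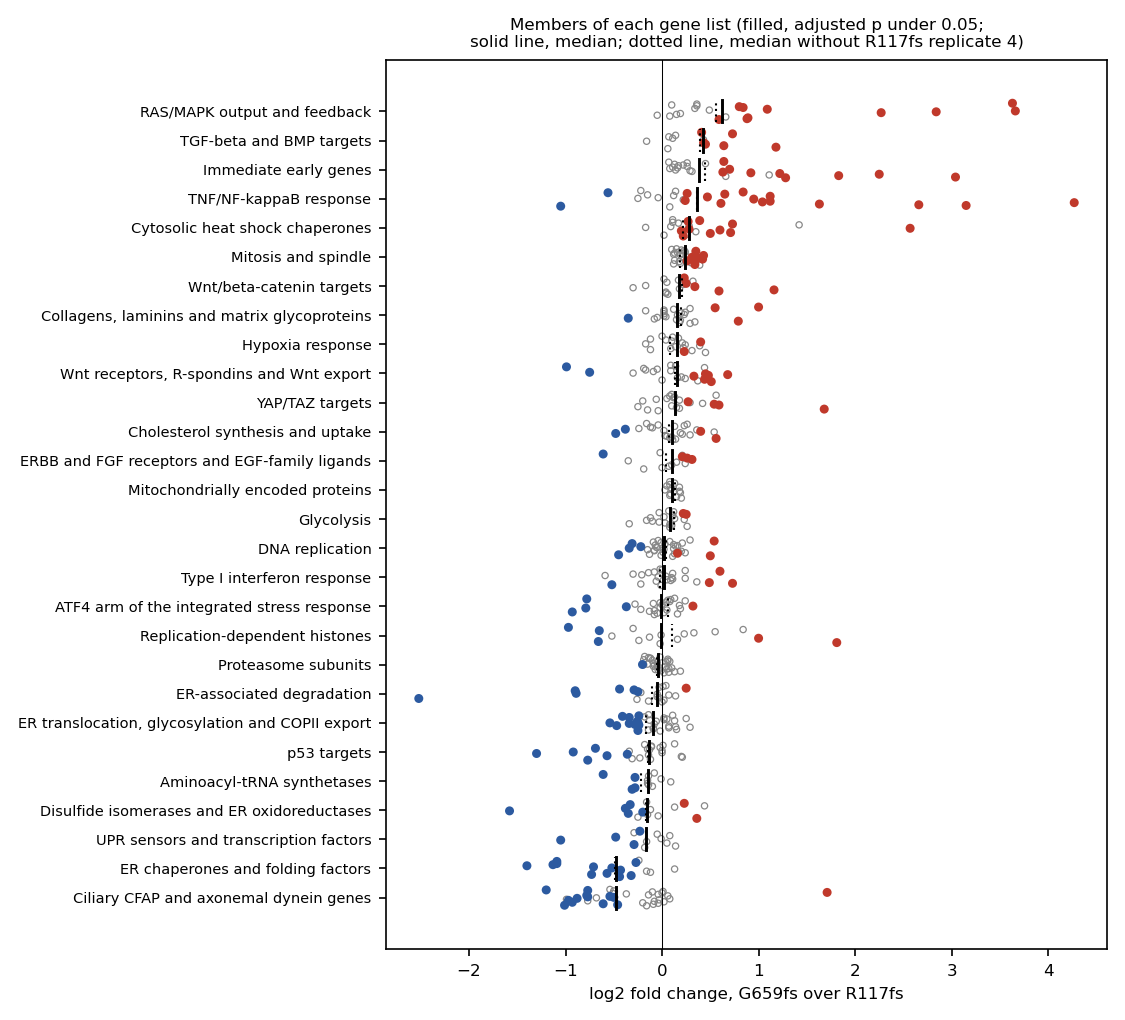
Each row is a gene list and each circle a tested member, with the log2 fold change of G659fs over R117fs on the x axis. Filled circles passed an edgeR adjusted p of 0.05, red where higher and blue where lower in G659fs; solid bars are the list medians with all libraries and dotted bars those without R117fs replicate 4. The medians run from -0.48 for ciliary genes and for ER chaperones to 0.63 for RAS/MAPK output.

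Genes for ciliary proteins, the CFAP family and axonemal dynein heavy chains, form the motor and scaffold of motile cilia. Of 34 tested, 12 fell and 1 rose, with a median of -0.48, where 8.02% of all tested genes fell. Without R117fs replicate 4, 13 fell and 1 rose, where 12% of all tested genes fell. With the effective length offset 5 fell, and the median was -0.28. DNAH7 stood at 1.29, 1.65, 1.51 and 1.67 CPM in G659fs, against 2.61, 4.64, 4.20 and 2.67 CPM in R117fs, and fell by 1.20 ± 0.18 (adjusted p = 4.4e-04). The call of DNAH7 was lost with the effective length offset (adjusted p = 0.435). CFAP43 fell by 0.93 ± 0.15, CFAP53 by 0.97 ± 0.20 and CFAP206 by 1.01 ± 0.28. SPEF1 and CASC1, known from the axoneme of cilia and sperm tails and in no list, were among the 10 largest falls, by 1.87 ± 0.32 and 2.11 ± 0.23. The rise was that of DNAH17, the dynein of the outer arms of sperm tails: it stood at 23.9, 28.1, 26.7 and 29.6 CPM in G659fs, against 9.69, 7.17, 6.53 and 9.76 CPM in R117fs, and rose by 1.71 ± 0.12 (adjusted p = 1.8e-07). WT averaged 33.9 CPM and GFP 36.9 CPM for DNAH17, so R117fs was the group that stood apart. DNAH14 and DNAH3 were near 0, at adjusted p of 0.985 and 0.991.

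In 4 further lists the share of called genes was near the 14.4% of all tested genes, at 16.7% for type I interferon genes, 16.7% for cholesterol genes, 11.1% for hypoxia genes and 10% for glycolysis genes. Of 24 type I interferon genes 3 rose and 1 fell: IFI44L by 0.73 ± 0.17, OAS3 by 0.60 ± 0.13 and IFI6 by 0.49 ± 0.13, against DDX58, the RNA sensor RIG-I, which fell by 0.52 ± 0.12, while ISG15 did not pass (adjusted p = 0.139). Of 24 genes of cholesterol synthesis and uptake 2 rose and 2 fell, among them HSD17B7 with a fall of 0.48 ± 0.08. Of 20 glycolysis genes 2 rose, PGK1 by 0.25 ± 0.06 and PKM by 0.22 ± 0.07, and of 18 hypoxia genes 2 rose, NDRG1 by 0.40 ± 0.09 and AK4 by 0.23 ± 0.07. Of 13 mitochondrially encoded protein genes 0 passed, and 2 rose without R117fs replicate 4, where 11.5% of all tested genes rose. Of the 8 HEK293 markers 1 rose and 2 fell: the keratins KRT8 and KRT18 fell by 0.56 ± 0.12 and 0.25 ± 0.08, and the RNA-binding protein LIN28B rose by 0.38 ± 0.12.

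R117fs replicate 4 bore on the balance of rises and falls by GC content. The tested genes were put into 5 bins of equal size by GC content. With all libraries the median log2 fold change was 0.09 in the bin of lowest GC content (30.9% to 42%) and -0.07 in the bin of highest GC content (58.8% to 76.8%). Without that library the medians were -0.03 and 0.06. In the GC-rich bin, 3.07% of genes rose and 8.82% fell with all libraries, and 15.5% rose and 7.42% fell without R117fs replicate 4. In the GC-poor bin, 6.68% rose and 3.79% fell, and 9.24% rose and 15.5% fell without it. Some of the larger differences moved little: without it PDIA4 was at -1.50, DERL3 at -2.35, EGR1 at 3.04, ETV5 at 3.61 and SPRY4 at 3.69. Others were smaller without it: GDF15 was at -1.04, SDF2L1 at -0.85, LGR4 at 0.31, HSPH1 at 0.28 and ERO1A at 0.23, each still past the threshold.

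**Figure D5:**
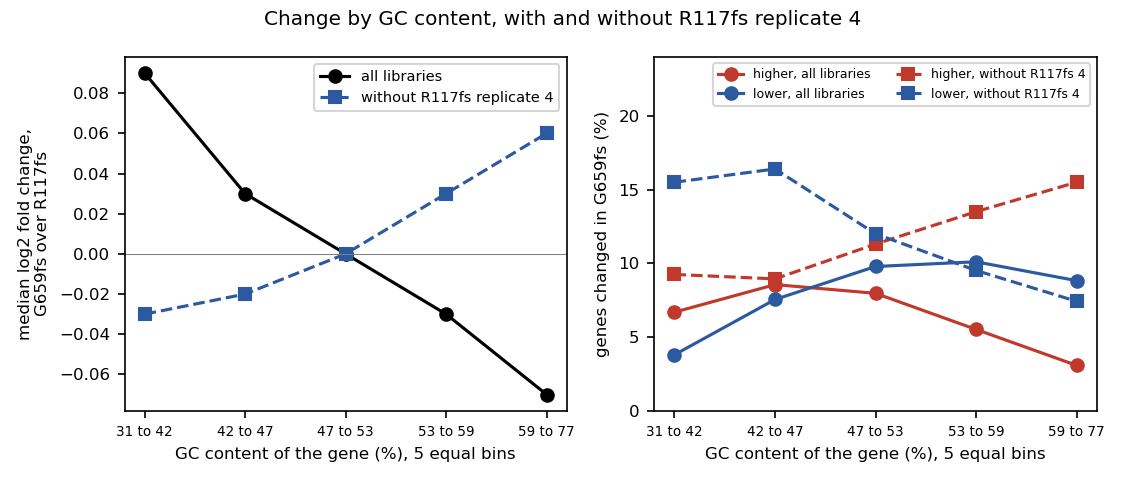
Left, the median log2 fold change of G659fs over R117fs (y axis) in 5 bins of the tested genes by GC content in percent (x axis), with all libraries and without R117fs replicate 4. Right, the percentage of genes in each bin that rose or fell in G659fs. With all libraries the medians fall with GC content, to -0.07 in the last bin, and without R117fs replicate 4 they climb, to 0.06.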

How the data were processed

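Per the labels' protocols, total RNA was column-purified with DNase I and made into libraries with NEBNext reagents. Per the submitters' processing notes, the authors ran kallisto 0.45.1 with GRCh38. Its annotation, options and strand setting are not given in the sources used here. For each transcript the deposited files hold an estimated count, a TPM and, per the file headers, a length and an effective length. The deposited TPM was used for RNF43 transcripts alone.

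Estimated counts were summed per gene on GENCODE 29 (91.2% of 178136 transcripts matched by identifier; the unmatched held 1.904% to 2.216% of a library's counts) and rounded. The test was edgeR's quasi-likelihood test (edgeR 4.0.16, R 4.3.3) after the low-count filter and TMM, in 1 fit of the 16 libraries with a coefficient for each group, contrast G659fs minus R117fs, Benjamini-Hochberg adjustment over 16787 genes. Every adjusted p is from this test unless another tool is named; ± after a log2 fold change is the SE. DESeq2 1.42.0 was an alternative. The procedure was tested on simulated data. Within groups no pair of libraries was a duplicate (chi-square per degree of freedom at least 2.980). Total counts per library set the counting precision, and levels in CPM are compared within a gene only. Reads of close copies are divided by estimation, and with the strand setting unknown, reads of antisense or overlapping genes may be mixed.

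The comparison, the 32 gene lists, the motifs and the rule for named genes were chosen with earlier results of these data known, so no count over a list is independent support. Named were RNF43, the 10 largest rises and falls described in the report, up to 6 called members of each list by size of change, the members of 8 lists with the smallest changes, and EGR1, HSPA5, DNAJB1, CXCL8, BUB1 and CDKN1A. Other list members in the text were picked after their values were seen. A few genes that the rule names are not reported here. Lists share MYC, CCND1, LGR5, COL1A1 and COL3A1. Promoters are from RefSeq (GRCh38.p14), 250 bases before to 50 after the start. Motif shares over all promoters count single promoters, while list counts are of genes with a match in any promoter.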

Additional observations from a re-analysis of the deposited data

Results flagged for a closer look

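In 424 groups of 4 libraries (211 genes named in the text and 1 RNF43 transcript share, in each of the 2 variants), 24 had 1 library whose gap to its nearest neighbour passed Dixon's 95% critical value. Chance gives this in about 1 in 20 groups. Of the 24, 7 were in G659fs, 12 were R117fs replicate 4 and 5 were R117fs replicate 1. Whether any of them is technical was not tested.

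In G659fs, replicate 1 was the highest for SARS (537 CPM, against 488 to 496), ID4 (125 CPM, against 106 to 109) and P2RX1 (6.51 CPM, against 3.97 to 4.25). Replicate 4 was the highest for CDKN1A (83.1 CPM, against 74.6 to 75.8) and IGFN1 (2.96 CPM, against 1.85 to 2.00), and the lowest for BIRC2 (45.5 CPM, against 50 to 50.8) and for the ENST00000577716 share of RNF43 counts (27.7%, against 28.2% in the other 3).

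R117fs replicate 1 was the lowest of its group for PDIA4 (405 CPM, against 776 to 831 in the other 3), for HERPUD1 (165 CPM, against 226 to 234), for HIST1H3E (9.41 CPM, against 14.3 to 15.2), for IL32 (2.33 CPM, against 4.66 to 4.92) and for SPRY4 (0.100 CPM, against 0.205 to 0.213). It was also the R117fs library with the least RNF43.

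R117fs replicate 4 was the lowest of its group for the chaperone CANX (1129 CPM, against 1562 to 1592), the oxidase ERO1A (87.4 CPM, against 136 to 139), RRM2 (108 CPM, against 152 to 161), FZD3 (24.7 CPM, against 39.6 to 40.7), LRP6 (28.8 CPM, against 39.2 to 41.0) and ORC1 (69.1 CPM, against 72.4 to 72.9). It was the highest for VCP (289 CPM, against 271 to 274), CARS (129 CPM, against 108 to 111), BBC3 (69.6 CPM, against 37.5 to 39.6), PSMC4 (67.8 CPM, against 55.3 to 56.1), MSX1 (42.4 CPM, against 29 to 30.5) and NFKBIA (26.3 CPM, against 20.7 to 21.4).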

How the results depend on the processing

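The 2412 calls (1066 higher, 1346 lower) became 796 (243 and 553) in a fit of only the 8 libraries compared, and 4887 (2430 and 2457) after removing each library's GC trend. In 2 alternatives chosen after seeing the data, both leaving out R117fs replicate 4, the fit of the remaining 7 libraries called 3520 (1624 and 1896) and the GC-corrected fit 4320 (2177 and 2143). Leaving out 1 library at a time gave 1320 to 4012 calls, 506 to 1965 of them higher and 809 to 2047 lower; the ends were G659fs replicate 3 (G659fs replicate 2 for the higher) and R117fs replicate 4. The 2-fold count ran from 171 to 268 over all alternatives. DESeq2 called 3004 genes. Deviations of same-numbered libraries correlated at 0.160, 0.020, 0.100 and 0.097. The same number was the best match for G659fs replicates 1, 3 and 4. G659fs replicate 2 correlated best with R117fs replicate 4 (0.035). The main fit did not pair the libraries, and the fit with the replicate block called 2737. Whether the numbers mark a shared batch was not tested. The RNF43 fold change ran from -1.05 (without R117fs replicate 1) to -0.60 with 1 library left out. The difference in the ENST00000577716 share ran from -71.5 to -71.2 percentage points with 1 library left out, where 3 against 4 cannot go below an exact permutation p of 0.0571. Of 146 named genes that passed, 84 did so in every alternative, 62 lost the call in at least 1, and 0 reversed; the 8 libraries alone ended 54 of 144, the effective length offset 31 and leaving out R117fs replicate 4 7. Depth limits genes below about 1 CPM, such as CCL20 and CXCL1 with 5 and 7 counts over the R117fs libraries.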

Other observations

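Outside every list, protein-coding genes with the largest rises and falls were looked at among those that passed with and without R117fs replicate 4, did not overlap and reached a mean of 10 CPM in the higher group, a rule chosen after the results were seen. The zinc-finger gene ZCCHC12 stood at 83, 114, 109 and 104 CPM in G659fs, against 19.6, 32.7, 48.1 and 27.2 CPM in R117fs, and rose by 1.70 ± 0.29 on the log2 scale (edgeR adjusted p = 0.00184). GADD45B, a growth arrest and stress response gene, rose by 1.31 ± 0.25, the small GTPase gene GEM by 1.16 ± 0.12, the orphan receptor gene GPR50 by 1.15 ± 0.14 and the elastin-interface glycoprotein gene EMILIN2 by 0.87 ± 0.12.

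Besides SLC22A31, described above, the falls were those of RARB, P2RX1, ZNF79, HIST1H3E and HIST2H4B. RARB, a retinoic acid receptor, stood at 8.74, 7.07, 7.51 and 5.82 CPM in G659fs, against 19.5, 19.8, 18 and 14.3 CPM in R117fs, and fell by 1.31 ± 0.14 (edgeR adjusted p = 2.6e-05). The ATP-gated channel gene P2RX1 fell by 1.28 ± 0.22 and the zinc-finger gene ZNF79 fell by 1.22 ± 0.11. Of the histone genes HIST1H3E fell by 1.12 ± 0.15 and HIST2H4B fell by 1.11 ± 0.24; the counts of HIST2H4B are uncertain, since reads are divided between it and HIST2H4A by estimation.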
